A study of Mus musculus with 6 samples.

Results

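Runx1 binding was examined at 10 mouse genes of the acute-phase and interleukin-6 (IL-6) response in lung fibroblasts. They comprise the secreted ligands Il6, Il11 and Lif, the receptor chains Il6st and Osmr, the feedback inhibitor Socs3, and the acute-phase proteins Saa3, Lcn2, Hp and C3. The genes were chosen by name, out of 21883 protein-coding genes of the RefSeq gene table for mouse build GRCm38.p6 (mm10), and all 10 are in that table. Peaks were counted for a gene if they touched its annotated body or lay up to 10 kb away from it. The measurements are chromatin immunoprecipitation and sequencing (ChIP-seq) peak lists from GFP-positive fibroblasts of lungs that received a sham injury, of lungs 14 days after intratracheal bleomycin (D14) and of lungs 56 days after it (D56). All mice carried Col1a2-CreERT2 and the mTmG reporter, in which Cre recombination under the collagen gene's promoter turns cells green. Each condition has 1 Runx1 ChIP library and 1 input library, DNA that did not go through immunoprecipitation, as background. Without replicates, no condition could be tested against another, and a difference between libraries has no measured error. How many mice gave cells to each library is not stated in the sources.

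IL-6 family cytokines bind a ligand-specific receptor chain and the shared chain gp130, which Il6st encodes. The pair then activates JAK kinases and the transcription factor STAT3. Socs3 is induced by STAT3 and blocks gp130 in turn. In liver, this pathway, together with NF-kappaB and C/EBP factors, switches on acute-phase proteins such as serum amyloid A and haptoglobin. Fibroblasts are a known source of IL-6, IL-11 and LIF, and IL-11 is known for its part in fibroblast activation. RUNX proteins recognise the DNA letters TGTGGT.

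The ChIP libraries counted 48816721 tags for sham, 78744701 for D14 and 49669125 for D56, and their inputs 39609538, 49312043 and 19949187. The lists held 25052, 56316 and 15009 peaks on the main chromosomes. The D14 list is the longest and its ChIP library the deepest, and their parts in any higher peak number at D14 cannot be told apart from that of the condition. Of 8 fibroblast marker genes, 7 had a peak in each library and Lum had none, while of 5 leukocyte markers 0, 2 and 0 had one (sham, D14, D56). Of 4 endothelial markers 2, 4 and 2 had a peak, and of 4 epithelial markers 1, 3 and 0. Of 5 hepatocyte markers 1, 3 and 0 had a peak, and Alb and Ttr had none in any library. Over all protein-coding genes, 60.3% had a sham peak, 73.3% a D14 peak and 53.7% a D56 peak. A binding peak does not measure expression, so these counts do not test the label.

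The bases before 6 gene starts are shown because a Runx1 peak met the promoter window of 5 of them in all 3 libraries, while that of Lif, the sixth, held the RUNX letters and met no peak. Each line gives the 250 bases before the annotated start on the gene's own strand, 5′ to 3′, from RefSeq (GRCm38.p6). Capitals mark matches to TGTGGT (RUNX), TGANTCA (AP-1), TTCNNNGAA (STAT), GGG and TTTCC with any 2 letters between (NF-kappaB) and TTGCNNAA (C/EBP), searched on both strands.
Il6 (chr5:30012864-30013113, plus strand): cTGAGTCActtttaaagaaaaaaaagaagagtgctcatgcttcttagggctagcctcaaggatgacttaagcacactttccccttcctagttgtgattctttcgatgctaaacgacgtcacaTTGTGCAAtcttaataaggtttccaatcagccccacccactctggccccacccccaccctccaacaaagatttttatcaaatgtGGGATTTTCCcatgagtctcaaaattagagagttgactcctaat
Il6st (chr13:112463820-112464069, plus strand): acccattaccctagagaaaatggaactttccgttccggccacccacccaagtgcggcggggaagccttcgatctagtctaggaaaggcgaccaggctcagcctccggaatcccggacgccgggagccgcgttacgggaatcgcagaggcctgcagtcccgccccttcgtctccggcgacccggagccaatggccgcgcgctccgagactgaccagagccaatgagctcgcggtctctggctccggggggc
Osmr (chr15:6874314-6874563, minus strand): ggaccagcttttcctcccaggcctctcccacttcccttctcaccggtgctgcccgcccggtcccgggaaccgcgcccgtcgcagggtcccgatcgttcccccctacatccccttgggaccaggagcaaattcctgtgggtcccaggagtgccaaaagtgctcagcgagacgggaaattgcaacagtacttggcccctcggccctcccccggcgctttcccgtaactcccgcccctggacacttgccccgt
Socs3 (chr11:117969367-117969616, minus strand): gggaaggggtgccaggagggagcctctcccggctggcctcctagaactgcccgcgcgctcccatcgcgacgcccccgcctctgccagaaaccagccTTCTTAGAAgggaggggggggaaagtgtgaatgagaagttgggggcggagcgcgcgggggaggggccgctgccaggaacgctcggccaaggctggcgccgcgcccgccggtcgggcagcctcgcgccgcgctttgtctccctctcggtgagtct
C3 (chr17:57228137-57228386, minus strand): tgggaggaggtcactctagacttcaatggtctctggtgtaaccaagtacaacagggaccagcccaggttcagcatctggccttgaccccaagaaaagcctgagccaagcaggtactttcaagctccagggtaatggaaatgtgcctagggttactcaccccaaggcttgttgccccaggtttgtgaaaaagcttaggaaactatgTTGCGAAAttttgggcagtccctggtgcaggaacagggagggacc
Lif (chr11:4257318-4257567, plus strand): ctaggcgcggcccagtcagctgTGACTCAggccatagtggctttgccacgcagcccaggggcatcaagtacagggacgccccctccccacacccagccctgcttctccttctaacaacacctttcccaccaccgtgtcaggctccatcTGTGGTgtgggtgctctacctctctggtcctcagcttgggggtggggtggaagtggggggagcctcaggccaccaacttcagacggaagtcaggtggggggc
The 5 motifs do not overlap one another in these stretches. The search covered the whole window from 250 bases before to 50 after the start, and 9 of the 10 genes matched that RefSeq table. Hp has no entry.

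None of the 5 windows that met a peak in all 3 libraries held TGTGGT. Of the members' windows only that of Lif did, with its first base 102 bases before the start. Over all 32851 promoter windows, 16.8% held it. The share was 10.7% of windows that met a sham peak against 19.6% of those that met none, 11.4% against 20.3% for D14 and 10.7% against 19% for D56. These shares are a description of letters, not tested. The Il6 window had an AP-1 match 249 bases, a C/EBP match 128 bases and an NF-kappaB match (GGGATTTTCC) 44 bases before the start. These 3 motifs occur in 7.81%, 10.8% and 1.63% of all windows. The Socs3 window had a STAT match, TTCTTAGAA, 154 bases before the start (8.30% of all windows), and that of C3 a C/EBP match 45 bases before it. Osmr had an AP-1 match 3 bases after its start, and Il6st had no match to any of the 5. Saa3 and Lcn2, with no peak over their windows, had C/EBP matches 99 and 216 bases before their starts. The second RefSeq start of Il11 had an AP-1 match 98 bases before it. A match is a description of the letters and not a binding site.

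**Figure D1:**
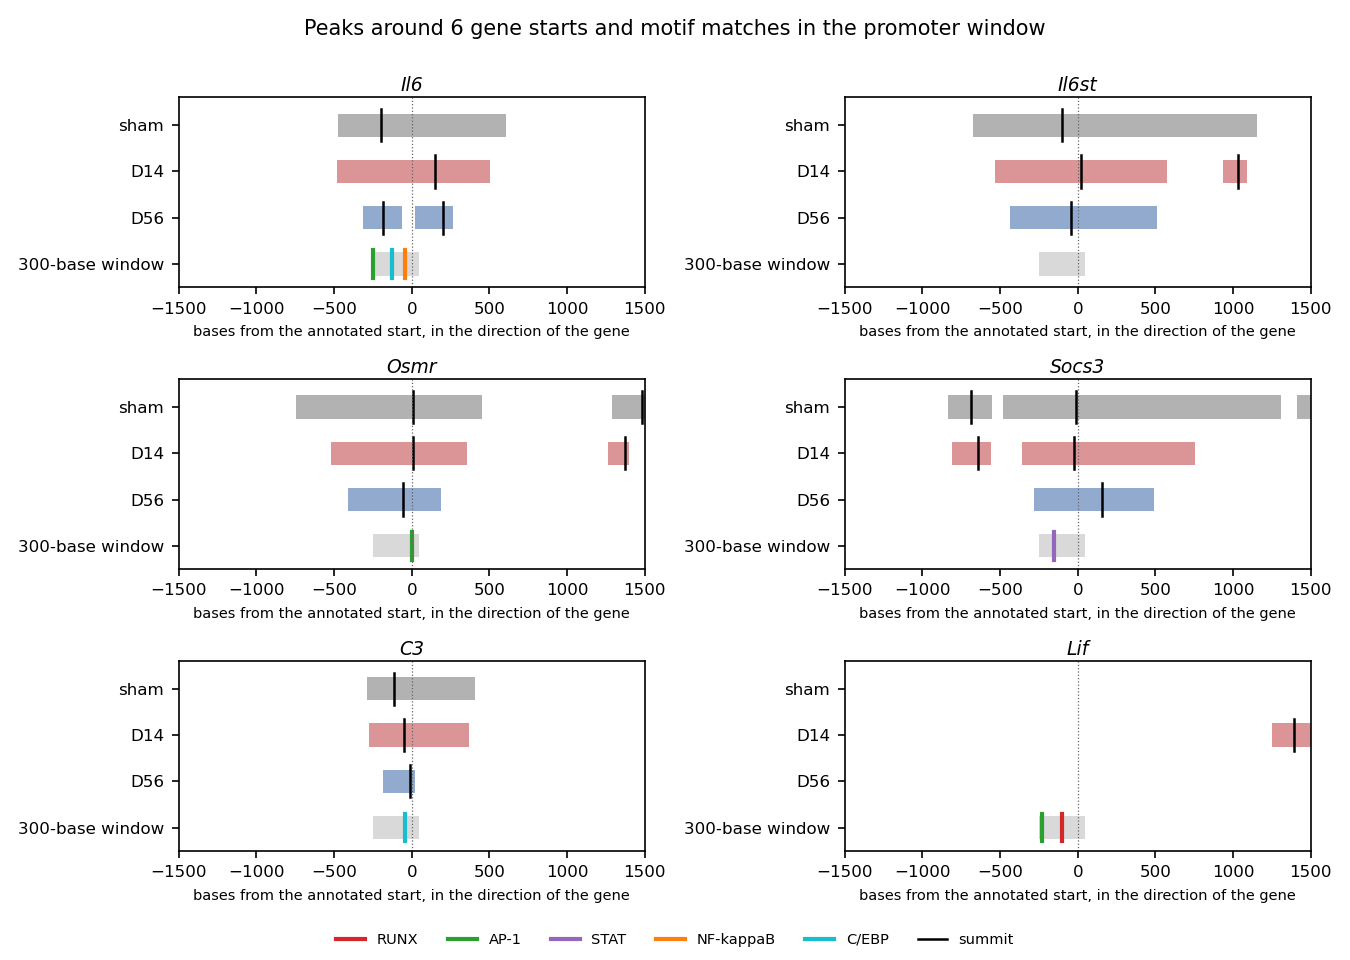
Peaks around 6 gene starts, with bases from the annotated start on the horizontal axis and 1 row per library (sham, D14, D56). Coloured bars are peaks, black ticks their summits, the grey bar is the promoter window of 250 bases before and 50 after the start, and coloured ticks are the first bases of motif matches; Il6st, Osmr, Socs3 and C3 have a peak over the start in each library, Il6 has one in sham and at D14 and a pair on either side of the start at D56, and Lif has none.

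All 10 genes had a Runx1 peak in each of the 3 libraries. Among all protein-coding genes, 60.3% had a sham peak, 73.3% a D14 peak and 53.7% a D56 peak, and 53.2% had one in all 3. Among protein-coding genes within the members' range of length (3.10 to 61.4 kb), 58.0% had one in all 3. The members held 24 sham peaks, 46 D14 peaks and 18 D56 peaks, with a median of 2, 3.5 and 2 peaks per gene, against 1, 2 and 1 over all protein-coding genes. Among the 15009 strongest peaks of each list by p, the length of the D56 list, the members held 16 sham, 15 D14 and 18 D56 peaks, so the higher number at D14 was not present at equal list length. In the full lists, more peaks were called at D14 than in sham at 6 of the 10 genes, against 51.4% of all protein-coding genes and 62.8% of those with a peak in all 3 libraries. C3 had fewer at D14 (3) than in sham (4), a pattern of 2.39% of all protein-coding genes, a base that includes genes without a peak.

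The numbers at D14 stood out at Lif, Il11 and Osmr. Lif had 1 peak in sham, 10 at D14 and 1 at D56. Il11 had 2, 7 and 3, and Osmr 3, 7 and 1. Socs3 had the most in sham, with 7, 7 and 3. The other 6 genes had 1 to 4 peaks in any library.

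**Figure D2:**
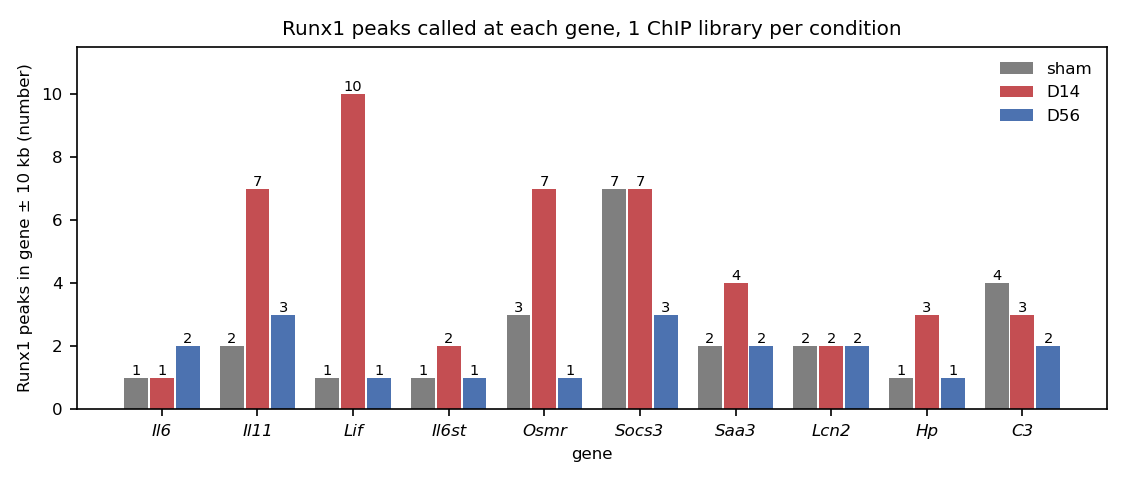
Number of Runx1 peaks in each gene and the 10 kb on either side, with 1 bar per library (sham, D14, D56). Lif has 10 peaks at D14 and 1 in each other library, while Socs3 has 7 in sham and 7 at D14.

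Joining peaks that overlapped across libraries gave 48 regions. All 3 libraries had called 15 of them (31.2%, 95% Wilson interval 19.9 to 45.3), against 23.9% of all 57567 joined regions. A further 24 were called at D14 alone (50%, 36.4 to 63.6), against 56.8% of all regions. Of the rest, 5 were called in sham and at D14 (10.4%, 4.53 to 22.2), against 14.9% of all regions. The other 4 were called in sham alone (8.33%, 3.29 to 19.6), against 3.51% of all regions. No member region was called at D56 without a sham and a D14 peak, and such regions were rare in the lists as a whole (477 in D14 and D56, 56 in sham and D56, 22 at D56 alone). The intervals cover counting error only, and the share of all regions lies inside each of them.

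The place of a region went with its pattern. Of 8 regions within 1 kb of a start of the member itself, 6 were called in all 3 libraries and 1 at D14 alone. Of 8 regions within 1 kb of a neighbouring gene's start, 5 were called in all 3 and 3 at D14 alone. Of 20 regions inside a member with no start within 1 kb, 0 were called in all 3 and 15 at D14 alone. The 12 flanking regions with no start nearby had 4 and 5. Regions near any start were called in all 3 libraries in 68.8% of 16 cases (44.4 to 85.8), against 52.6% of all regions near a start. Away from starts the share was 12.5% of 32 (4.97 to 28.1), against 14.3%. The members thus followed the general division of these lists between starts and other places. Chromosome 18 is not in the table of starts, and a neighbour that the table lacks counts as no start. Hp is not in it either, so no region could count as near its own start. The D14-only region over the upper end of the Hp gene body is thus among the 20 by default, wherever the Hp start lies.

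**Figure D3:**
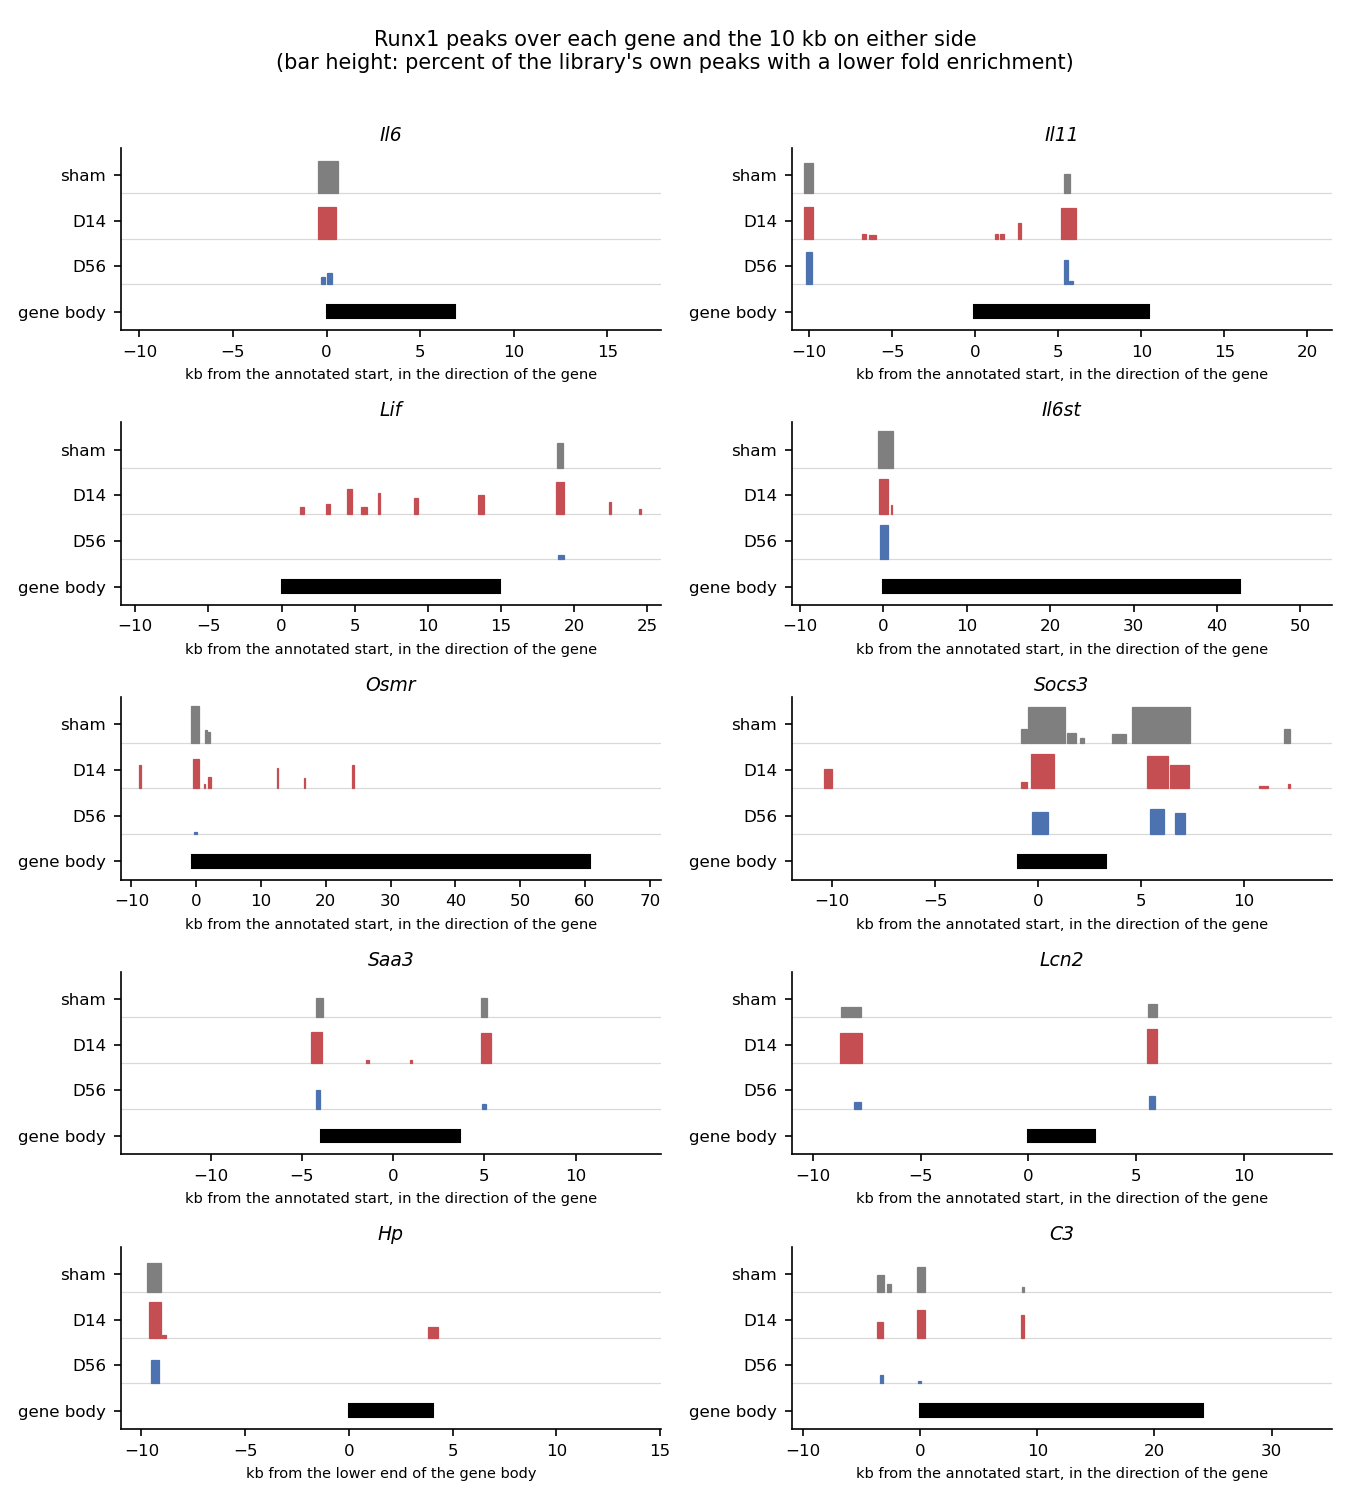
Maps of the 10 genes with the 10 kb on either side, to scale, with kb from the annotated start in the direction of the gene (for Hp, kb from the lower end of the gene body) and 1 row per library (sham, D14, D56). Each bar is a peak, its width the peak's length and its height the percent of that library's own peaks with a lower fold enrichment; peaks of Il6 and Il6st sit at the gene start, those of Lif at D14 spread along the gene, and those of Lcn2 lie outside the gene.

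Among the ligands, Il6, the founding cytokine of the family, carried Runx1 peaks at its start and nowhere else in the window. The gene lies at chromosome 5, 30013114 to 30019975, where the lncRNA gene A230098N10Rik overlaps the window. The peak at its start reached from 30012637 to 30013722 in sham and from 30012634 to 30013615 at D14. At D56 the stretch held a pair of shorter peaks, 30012797 to 30013050 and 30013134 to 30013381. The summit, the highest point of the ChIP signal, lay 197 bases before the start in sham and 149 bases after it at D14. The D56 summits lay 182 bases before and 199 after it, one on each side, and neither D56 peak covered the start itself. Pileup counts the ChIP fragments stacked at the summit, after ChIP and input were brought to one depth, and fold enrichment is its ratio to the local background. Both are the authors' values for each library apart and are not on a common scale. The pileup was 64 in sham, 85 at D14 and 20 for each D56 peak, and the fold 8.91, 13.8 and 4.74 and 5.37.

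Il11, which signals through gp130 and its own receptor chain, had a Runx1 region inside the gene that all 3 libraries shared (chromosome 7, 4776776 to 4777673). Its D14 summit lay 712 bases after the second of its 2 RefSeq starts, and 5.43 kb after the first. Pileups there were 33 in sham, 93 at D14 and 25 for the stronger of 2 D56 peaks, with folds of 5.03, 11.8 and 8.22. The other shared region in the window (4792645 to 4793152) lay upstream of the gene, with summits 81 to 149 bases from the start of Rpl28, a ribosomal protein gene. Its folds were 7.68 for sham, 12.9 for D14 and 11.9 for D56, the highest at Il11 in each library. The other 5 regions were called at D14 alone, with folds of 3.17 to 4.96. Of those, 2 lay within 1 kb of the start of the neighbour Tmem238.

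Lif, leukaemia inhibitory factor, had no peak within 1 kb of its start in any library. The region shared by all 3 lay downstream of the gene (chromosome 11, 4276330 to 4276905), with summits 18976 to 19096 bases after the start. Its pileup was 41 for sham, 92 for D14 and 19 for D56, and its fold 6.05, 13.4 and 4.14. At D14 a further 7 peaks lay inside the gene, 1.40 to 13.7 kb after the start, and 2 more beyond the shared region. None of these 9 overlapped a sham or D56 peak. Their pileups were 21 to 46 and their folds 3.27 to 7.11, where the median fold of all D14 peaks was 5.68. Of all D14 peaks in that range of fold, 21.9% overlapped a sham peak. Across the genome, most D14 peaks in that range thus had no sham overlap, and a peak list does not show signal below its calling threshold.

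Among the receptors, Il6st, which encodes gp130, had the highest fold of the members' start regions in each library. Its region (chromosome 13, 112463398 to 112465224) covered the start in each library, with summits 101 bases before it in sham, 19 after it at D14 and 43 before it at D56. The pileup was 145 for sham, 145 for D14 and 52 for D56, and the fold 18.3, 20.9 and 14.4. The 42.8 kb gene had no other peak besides a D14 peak of fold 4.02 that falls within the wider sham peak.

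Osmr, the receptor chain for oncostatin M, also had a peak over its start in each library (chromosome 15, region 6873859 to 6875058). The sham and D14 summits lay 8 and 6 bases after the start, and the D56 summit 58 bases before it. The pileup was 112 for sham, 103 for D14 and 28 for D56, and the fold 15.2, 10.5 and 2.91. At D56 the fold was thus low for the height of the signal. Of 1847 D56 peaks with a pileup within 10% of 28, whose median fold was 8.19, 0% had a lower fold. At D14, 12.3% of 2480 peaks of like pileup had a lower fold, and in sham 93.7% of 783. Close to the start, 2 regions with summits 1371 to 2008 bases into the gene were called in sham and at D14. A further 3 regions inside the gene, 12.5 to 24.2 kb after the start, and 1 region 8678 bases before it were called at D14 alone, with folds of 4.19 to 6.86.

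Socs3, the inhibitor that STAT3 induces, had a pair of regions called in every library. In sham, 98.6% and 98.7% of all peaks had a lower fold than the start peak and the downstream peak. At D56, 57.7% and 66.6% had a lower fold than the start peak and the stronger downstream peak. One covered its start (chromosome 11, 117968058 to 117969848), with folds of 13.6 for sham, 17.8 for D14 and 7.39 for D56 and pileups of 162, 143 and 38. The other lay downstream of the gene (117961984 to 117964818), with its highest summit 5.82 kb after the start in sham and 5.79 kb after it in the other libraries. For sham it was a single peak of 2835 bases with a fold of 13.8 and a pileup of 164. At D14 it was called as 2 peaks, with folds of 6.66 and 13.7, and at D56 as 2 peaks, with folds of 7.18 and 8.33. The summits of the stronger ones lay close together in all 3 libraries, at 117963549, 117963577 and 117963574. Of the 4 member regions called in sham alone, 3 lay at Socs3, with folds of 3.17 to 3.89. They lay between the pair of shared regions, and all 18 sham peaks of the members overlapped a D14 peak once peaks under 500 bp apart were merged.

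Among the acute-phase protein genes, C3, the central component of complement, had a peak over its start in each library (chromosome 17, region 57227728 to 57228423). Its summits lay 114, 48 and 9 bases before the start, with pileups of 37, 58 and 18 and folds of 6.30, 9.24 and 3.25 (sham, D14, D56). A second region shared by all 3 lay 3272 to 3555 bases before the start by its summits (57231251 to 57231877), with folds of 4.73, 5.06 and 4.88. A region with summits 8752 and 8781 bases into the gene was called in sham and at D14, with folds of 3.27 and 6.53. A peak called in sham alone (57230632 to 57231025, fold 3.72) lay under 500 bp from the sham peak of the second shared region. Merging peaks under 500 bp apart joins these, so the lower D14 number at C3 rests on that split.

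Saa3, the serum amyloid A gene that is active outside the liver in mice, had no shared peak at its start (chromosome 7, 46715676, minus strand). Its shared regions lay toward the ends of the gene. One, outside the gene body, overlapped the annotated body of the neighbour Saal1 (46710327 to 46710887), with folds of 5.16 for sham, 10.5 for D14 and 4.17 for D56. The other overlapped the upper end of the annotated gene body, with summits 842 to 909 bases from the start of the lncRNA Gm31882 (46719504 to 46720168), with folds of 5.07, 11.8 and 6.59. At D14 alone, peaks with folds of 2.71 and 3.10 lay inside the annotated gene body, 985 bases after the start and 1396 bases before it.

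Lcn2, lipocalin 2, which binds bacterial siderophores, had 2 peaks in each library and neither met the gene (chromosome 2, 32384637 to 32387739). One lay at the start of 1110008P14Rik, 5.73 to 5.77 kb after the Lcn2 start by its summits, with pileups of 60, 130 and 32 and folds of 4.36, 18.9 and 5.59 (sham, D14, D56). The other lay at the start of Ptges2, a prostaglandin E synthase gene on the other side of Lcn2, with pileups of 43, 82 and 22 and folds of 4.07, 10.5 and 4.70. Its summits lay 284, 282 and 284 bases from the Ptges2 start.

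Hp, haptoglobin, which binds free haemoglobin, had its shared region at the start of the neighbour Txnl4b, where it also overlapped the annotated body of Dhx38 (chromosome 8, 109565404 to 109566067). The pileup there was 94 for sham, 165 for D14 and 38 for D56, and the fold 7.32, 24.5 and 7.83. The D14 value was the highest fold at any of the 10 genes in that library. One peak met Hp itself, over the upper end of its gene body at D14 alone (109578928 to 109579405, fold 4.27). Hp has no entry in the table of starts, so the distance of this peak from the Hp start was not measured. When each peak was given only to its nearest protein-coding gene, Lcn2 had no peak in any library, and Hp had a peak at D14 alone.

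A peak met the promoter window of 5 of the 9 members in the table in every library, and the genes were the same each time (Il6, Il6st, Osmr, Socs3 and C3). Over 17491 protein-coding genes in the table, the share was 45.8% for sham, 55.6% for D14, 40.3% for D56 and 39.6% in all 3, so the members' count was close to that of genes in general.

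Ranks within a fixed set allow the lists to be set side by side. The 13733 regions called in all 3 libraries were ranked by fold in each library, and the rank of a region is the percent of these regions with a lower fold in the same library. In sham, the 8 shared regions of the IL-6 family genes and Socs3 had ranks of 26.2 to 99.8 with a median of 88.0, and the 7 of the acute-phase protein genes 11.1 to 61.3 with a median of 27.0. At D14 the ranges were 33.7 to 82.1 (median 51.5) and 4.26 to 89.7 (median 33.5). At D56 they were 0.226 to 93.8 (median 58.7) and 0.867 to 59.1 (median 15.4). The ranges overlapped in each library. Il6, Il11, Il6st, Osmr and Socs3 each had a shared region within 1 kb of a start of their own, but of the acute-phase protein genes only C3 did. Shared regions at Saa3, Lcn2 and Hp lay near a neighbour's start or near none. Gene role and place thus cannot be told apart in these medians.

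**Figure D4:**
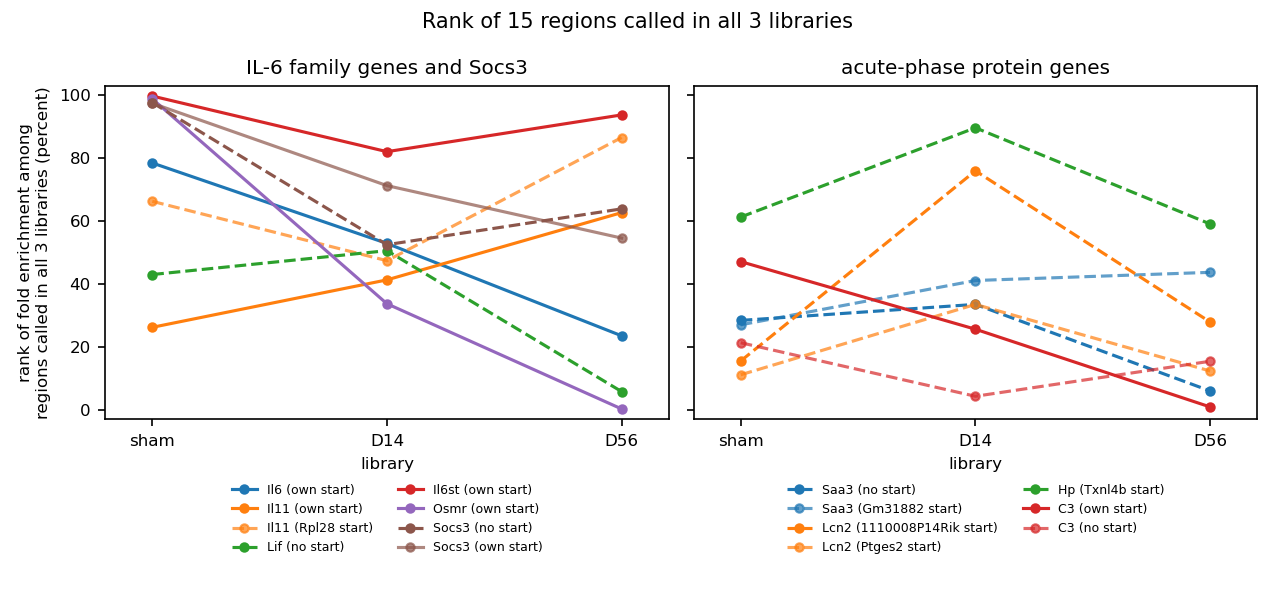
Rank of fold enrichment of the 15 member regions called in all 3 libraries, as the percent of the 13733 such regions with a lower fold in the same library (vertical axis), by library (horizontal axis: sham, D14, D56). Solid lines are regions within 1 kb of a start of the gene itself and dashed lines are the others, each named with the start near it; the Osmr start runs through 98.9, 33.7 and 0.226 and the Il6st start through 99.8, 82.1 and 93.8.

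The Osmr start had the widest span of the 15 regions, with ranks of 98.9 in sham, 33.7 at D14 and 0.226 at D56. Its D56 minus sham difference of -98.6 was the lowest of all 13733 regions, and its D14 minus sham difference of -65.2 was lower than all but 1.44% of them. By pileup in place of fold its ranks were 95.4, 56.7 and 62.5, so the D56 minus sham difference was -32.9, and the part of the local background in the fold difference was not tested. The Il6st start had ranks of 99.8, 82.1 and 93.8. The Socs3 start had 97.5, 71.3 and 54.6, and the downstream Socs3 region 97.7, 52.5 and 63.9. Of the 684 shared regions with a sham rank of 95 or more, the median rank was 85.8 at D14 (quartiles 68.4 and 94.7) and 88.1 at D56 (71.6 and 95.5). Il6st lay within these quartiles in both libraries, and the Osmr start and both Socs3 regions lay below the lower quartile at D56. The pileup ranks of the Socs3 start were 99.7, 80.3 and 82.2, so its D56 minus sham difference was -17.4 by pileup and -42.9 by fold. The downstream Socs3 region had pileup ranks of 99.7, 71.4 and 82.2, with differences of -17.5 by pileup and -33.8 by fold. The Il6 start had fold ranks of 78.5, 52.9 and 23.5 and pileup ranks of 65.7, 41.4 and 36.2, with D56 minus sham differences of -54.9 by fold and -29.5 by pileup.

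Some regions ranked highest at D14. The Lcn2-flanking region at 1110008P14Rik had ranks of 15.5 for sham, 76.0 for D14 and 27.9 for D56, and its D14 minus sham difference of 60.4 stood above 98.1% of regions. By pileup the difference was 13.6, and the sham fold of 4.36 was low for its pileup, with 4.18% of 2489 sham peaks of like pileup lower. The region near Hp had 61.3, 89.7 and 59.1, and by pileup 89.0, 88.9 and 82.2. At both places the fold difference was larger than the pileup difference, and here too the part of the local background was not tested. Over all 15 regions, the D14 minus sham difference was negative at 8 and positive at 7, and 2 lay outside the central 95% of all regions (-58.8 to 57.0). The D56 minus sham difference was negative at 10 and positive at 5, and 1 lay outside the central 95% (-59.3 to 54.6).

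D14 was set against sham to ask where peaks were called after injury and not without it. Of the 46 D14 peaks at the members, 22 overlapped a sham peak (47.8%, 34.1 to 61.9), against 41.1% of all D14 peaks. Those that met none numbered 24 and had folds of 2.71 to 7.11 (median 4.14), and the 22 with one a median of 10.5. Over all D14 peaks the medians were 4.75 without and 9.50 with a sham overlap. By their median, the members' D14 peaks without a sham overlap were thus weaker than the list as a whole (median 5.68). Some of them, at Lif and Osmr, lay above that median. Conversely, a D14 peak lay over 20 of the 24 sham peaks (83.3%, 64.1 to 93.3), against 91.7% of all sham peaks.

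D56 was set against D14 and sham to ask which peaks were still called late. All 18 D56 peaks overlapped a D14 peak, against 99.4% of all D56 peaks, and all 18 overlapped a sham peak, against 96.4%. Of the 46 D14 peaks, 16 overlapped a D56 peak (34.8%, 22.7 to 49.2), against 25.6% of all D14 peaks, and each of these 16 also overlapped a sham peak. Of the 24 D14 peaks that met no sham peak, 0 met a D56 peak. Of all joined regions, 0.829% were called at D14 and D56 without sham, so such overlap was rare across the lists. Of the 24 sham peaks, 15 overlapped a D56 peak (62.5%, 42.7 to 78.8), against 55.7% of all sham peaks. The D56 input was the smallest of the 3 inputs, and its part in peaks missing from the D56 list was not tested.

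The other genes of the pathway, numbered 62 in 7 lists. Of these, 44 had a sham peak, 54 a D14 peak and 41 a D56 peak, where 60.3%, 73.3% and 53.7% of all protein-coding genes had one. More peaks were called at D14 than in sham at 38 of them and fewer at 4, against 51.4% and 2.39% of all protein-coding genes. Of protein-coding genes with a peak in all 3 libraries, 62.8% had more at D14 than in sham. Their median peak number was 2 in sham, 3 at D14 and 1 at D56. None of the 62 had a peak at D56 without one in sham. This was rare among genes in general, as 53.7% had a D56 peak and 53.2% a peak in all 3 libraries. The folds given below are those of the strongest peak in the gene or the 10 kb on either side. Such a peak can lie at a neighbour's start, as it did in all 3 libraries at Il11, Lcn2 and Hp. Which start lay nearest is not given for these genes, so a fold is not assigned to the named gene's own start.

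Among 7 other ligand genes, 5 had a sham peak, 6 a D14 peak and 4 a D56 peak, and Osm, the ligand of Osmr, had none in any library. The D14 folds were 15.2 at Ctf1, cardiotrophin 1, 14.2 at Ebi3, a subunit of IL-27, and 12.4 at Clcf1, cardiotrophin-like cytokine. Clcf1 had 1, 6 and 1 peaks (sham, D14, D56). Among 5 other receptor genes, 4, 5 and 3 had a peak. The D14 folds were 19.9 at Il6ra, the IL-6 receptor, 16.3 at Il11ra1, the IL-11 receptor, 12.7 at Lifr, the LIF receptor, and 8.61 at Cntfr, the receptor for ciliary neurotrophic factor. Il6ra had 6, 6 and 3 peaks, and Il11ra1 4, 7 and 3.

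All 9 signal transducer genes and all 7 other feedback genes had a peak in each library, against 53.2% of all protein-coding genes. Stat5a and Stat5b lie side by side with the same top folds (7.56, 12.1 and 5.99 for sham, D14 and D56), so they are not separate counts. The kinase genes Tyk2 (D14 fold 22.7) and Jak1 (21.7) and the transcription factor Stat3 (17.1) led the first list. Cish (21.5), Ptpn6 (17.7), Ptpn2 (17.2) and Socs2 (16.5) led the second. Cish and Socs2 are cytokine-signalling inhibitors related to Socs3, and Ptpn6 and Ptpn2 are phosphatases. All 7 genes of acute-phase transcription factors also had a peak in each library. They were led by Nfkbiz, an NF-kappaB cofactor (20.5), Cebpd, a C/EBP factor (18.7), Bcl3, an NF-kappaB cofactor (18.4), and Nfkb1, an NF-kappaB subunit (17.7). Nfkbiz had 12 sham peaks, 5 D14 peaks and 1 D56 peak, and Nfkb1 had 5, 14 and 2.

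Of 17 other acute-phase protein genes, 5 had a sham peak, 12 a D14 peak and 5 a D56 peak, with a median of 0, 2 and 0 peaks. The highest D14 folds were at Fgb, a fibrinogen chain (23.0), Serpina3n, a protease inhibitor (21.3), Hpx, haemopexin (13.5), and Saa4 (11.8). The Saa4 peak is the one described above for Saa3 near Gm31882. These counts include the near-identical copies Saa1 and Saa2 and Orm1 and Orm2, where the placing of reads is uncertain. Hpx had 0 sham peaks, 2 at D14 and 0 at D56. Of 10 other complement genes, 7, 8 and 6 had a peak, led by Cfb, complement factor B (21.2), and Serping1, the C1 inhibitor (10.7), with C1s1, a C1 protease, at 7.35.

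Likeness between a member and the other pathway genes was measured as the summed absolute difference of their peak numbers over the 3 libraries. Stat5b equalled Osmr (3, 7 and 1 peaks), Ptpn11, a phosphatase in the pathway, and C1s1 equalled Il6st (1, 2 and 1), and Tyk2 equalled Lcn2 (2, 2 and 2), each at a difference of 0. Socs2 (6, 7 and 3) differed from Socs3 by 1, Serping1 (2, 6 and 3) from Il11 by 1, and Ebi3 (3, 3 and 2) from C3 by 1. Cebpa and Lifr differed from Saa3 by 1, C1s1 and Cfb from Hp by 1, C1ra from Il6 by 1, and Jak2 from Lcn2 by 1. The second nearest were Cebpd for Osmr (a difference of 3), Il6ra for Socs3 (2) and Pias3 for C3 (2). Clcf1 differed from Lif by 4.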

How the data were processed

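Peak lists of 3 Runx1 ChIP libraries, deposited by the authors, were used; the 3 inputs entered only through them. The submitters' processing notes name the tools BWA, SAMtools and MACS2 and the build mm10. Per the file headers, MACS 2.0.10.20120913 set every ChIP library against the input of the same condition. It scaled the deeper of the 2 down, took local background from 1 kb and 10 kb around a peak, assumed 1.87 Gb of genome and kept peaks at a q-value of 0.01. Per the file headers, each peak has a pileup signal, a fold enrichment (a ratio) and a −log10 p-value and −log10 q-value. No lists were pooled. The sources used here do not give the alignment settings or the mice per library.

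Peaks off the main chromosomes were left out. Peaks overlapped when they shared 1 bp or more. Overlap and assignment steps were tested on simulated peaks. Named pathway genes were, per list, up to 4 with the highest D14 fold, any with a peak at D56 and none in sham, and for each member the 2 nearest by likeness. Some genes that this rule names are not reported here. Members, lists and rules were chosen with earlier results of these data known. The motifs other than RUNX, the ranks among shared regions and the like-pileup comparison were chosen after the data were seen. Alternatives covered peak strength, list length, gene window, overlap rule and merging. Python 3.11.15, pandas 2.3.3, NumPy 2.4.6 and SciPy 1.17.1 were used.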

Additional observations from a re-analysis of the deposited data

How the results depend on the processing

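Of 89 alternative values, 68 stayed within 1.5 times the reported count or inside the interval of the reported share, and 21 did not. Keeping the 15009 strongest peaks of each list left 15 (by p) or 14 (by fold) D14 peaks and, by fold, 13 sham peaks at the members. Then 100% or 85.7% of D14 member peaks overlapped a sham peak, and 100% by either order overlapped a D56 peak. The larger D14 number thus held at the full list length and not at equal length. With a fold of 5 or more, sham kept 12 peaks, D14 24 and D56 10, and 100% of the sham ones overlapped a D14 peak. A D56 peak then remained at 7 genes (without Lif, Osmr and C3), a sham peak at 9 (without Lcn2) and a D14 peak at 10. With a −log10 q-value of 5 or more, 8 genes kept a D56 peak (without Osmr and C3). Gene bodies alone held 13, 28 and 7 peaks and left 6 genes with a D56 peak (without Lif, Saa3, Lcn2 and Hp). With 50 kb on either side there were 64, 114 and 44 peaks. With a reciprocal overlap of 50%, 50% of D56 member peaks overlapped a D14 peak and 19.6% of D14 member peaks a D56 peak. With peaks under 500 bp apart merged, 100% of sham member peaks overlapped a D14 peak. The overlap shares of all peaks were not computed at these settings, so these member shares do not show a difference from the lists as a whole. Each value was compared only with its own reported value, so a change in the order of the libraries was not scored. At equal length by p, sham had 16 member peaks and D14 15, the opposite order to the full lists. By fold, sham had 13 and D14 14. No paired analysis was possible because each condition has 1 library. No alternative varied the depth of the inputs, and 1 library per condition leaves the spread between mice unknown.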
